A study of Arabidopsis thaliana with 87 samples.

Results

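Always red 35S::RUBY Arabidopsis plants were compared in 2 genotypes, dcl1234 with 8 small RNA libraries and Col-0 with 11, which together made up 19 of the 87 libraries of the series. The libraries were assigned by their labels, as those with the 35S construct and Always Red in the title. RUBY encodes enzymes that make the red pigment betalain, so red leaves show that the transgene is expressed. Small RNA came from 4-week-old leaves of plants kept at 22 °C under 18 h light and 6 h dark cycles, and the series asks how silencing of a transgene starts. The dcl1234 libraries came from the events MK072 (3 libraries) and MK073 (5 libraries), both in a quadruple mutant of DCL1, DCL2, DCL3 and DCL4, the DICER-LIKE genes. The Col-0 libraries came from the events MK010 (1 library) and MK016, MK034, MK042, MK044 and MK045 (2 libraries each), in the wild-type background. All 19 carried RUBY behind the 35S promoter of cauliflower mosaic virus, which is active in most plant tissues. An event is a line with its own transgene insertion, so libraries of the same event share an insertion, and no event was present in both genotypes. Genotype and insertion therefore cannot be told apart within a single event, and every difference below is between sets of events. The p-values measure the spread between libraries, which the series describes as biological replicates.

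DICER-LIKE enzymes are RNase III proteins that cut double-stranded RNA into small RNAs of set lengths. DCL4 makes mainly 21 nt, DCL2 mainly 22 nt and DCL3 mainly 24 nt short interfering RNAs, while DCL1 makes most microRNAs. Because the substrate is double-stranded, such products come from both strands, whereas pieces of a degraded messenger RNA come from the strand of that messenger and have no preferred length. Complete loss of DCL1 is lethal in the embryo, so living quadruple mutants are usually made with a partial dcl1 allele. The allele used here is not given in the labels, and the DCL genes themselves were not analysed here, because the files hold small RNA of the transgene only.

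For every library the deposited values give the reads on the whole transgene at each length from 18 to 28 nt on the plus and on the minus strand, which makes 22 combinations. Which strand corresponds to the RUBY messenger is not given in the sources used here. Mapped reads ranged from 14.0 to 22.4 M in dcl1234 (median 15.2 M) and from 12.3 to 29.7 M in Col-0 (median 19.1 M), where M is 1000000 reads. The transgene received 4843 to 8874 reads in dcl1234 libraries and 2303 to 13279 in Col-0 libraries. A count of 3 reads, taken as the limit of detection, equalled 0.134 to 0.215 RPM (reads per 1000000 mapped reads) in dcl1234 and 0.101 to 0.243 RPM in Col-0. Reads carry no molecular identifiers, so limits and intervals on reads cover counting error only. Number 2 of the Col-0 event MK034 had the lowest total of the 19, and its 27 nt minus strand combination, absent from the file, was set to 0.

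RUBY small RNA of the minus strand was lower in dcl1234 than in Col-0, while no difference in the total or the plus strand passed the test. The total ranged from 343 to 447 RPM in dcl1234 (median 392) and from 147 to 717 RPM in Col-0 (median 447). The groups overlapped, and the mean difference was -0.14 on the log2(RPM + 1) scale (95% interval -0.55 to 0.31, exact permutation test, adjusted p = 0.569). All log2 differences below are dcl1234 minus Col-0 on that scale, and the folds given with them are ratios of RPM + 1. The added 1 RPM pulls differences between low levels towards 0. The minus strand carried 15.6 to 25.3 RPM in dcl1234 (median 18.0) and 43.2 to 214 RPM in Col-0 (median 148). All 8 dcl1234 libraries lay below all 11 Col-0 libraries, with means of 18.8 ± 3.43 RPM (SD, n = 8) and 147 ± 44.0 RPM (SD, n = 11). The minus strand difference was -2.83 (interval -3.24 to -2.37), a 7.12-fold lower level in dcl1234 (exact permutation test, adjusted p = 5.95e-05). The plus strand ranged from 322 to 428 RPM in dcl1234 (median 376) and from 104 to 504 RPM in Col-0 (median 301). Its difference of 0.36 (interval -0.09 to 0.82) did not pass the threshold of 0.05 (exact permutation test, adjusted p = 0.156). Of these 9 sums, the total, the strands and 6 length classes, 6 passed (66.7%). The minus strand and the 21 nt class were lower in dcl1234 (22.2%), while 18 to 20, 23, 24 and 25 to 28 nt were higher per mapped read (44.4%) and 22 nt did not pass. With MK072 alone against Col-0, none of these higher classes passed (exact permutation tests, adjusted p = 0.130 to 0.190). With MK073 alone, 18 to 20 and 24 nt did not (adjusted p = 0.0673 and 0.0663). With 1 mean per event, none of the higher classes passed (adjusted p = 0.482 each). The 18 to 20, 23 and 24 nt classes turned lower, and passed, when each library was scaled to its own plus strand reads of 25 to 28 nt (log2 differences -0.38, -0.16 and -0.25). In bulk leaf RNA, a change in every cell and a change in a share of the cells cannot be told apart. Whether total and plus strand passed depended on single libraries and on the scaling: without Col-0 MK034 number 2 the total was called lower in dcl1234 (log2 difference -0.30, exact permutation test, adjusted p = 0.0346), and without Col-0 MK016 number 2 the plus strand was called higher (0.44, adjusted p = 0.0456).

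Of the 22 length and strand combinations, 21 differed between the genotypes (95.5%), 8 of them lower in dcl1234 (36.4%) and 13 higher (59.1%), by exact permutation tests with Benjamini-Hochberg adjustment over the 22. Since these combinations are all of the data, those shares are also the background. On the minus strand 11 of 11 combinations passed, with 18 to 24 nt lower and 25 to 28 nt higher in dcl1234. Its log2 differences at 18, 22 and 25 nt were -0.92, -2.70 and 0.87. The log2 fold changes of edgeR on the counts, with mapped reads as library sizes, were larger in size there, at -1.71, -3.55 and 2.10. On the plus strand only 21 nt was lower, 9 lengths were higher, and 22 nt did not pass. Set against Col-0 alone, MK073 gave 19 calls and MK072, with fewer libraries, gave 10. With 1 mean per event, 2 against 6, none of the 22 passed after adjustment, since the smallest exact p that such a design allows is 0.0357. At that level of event means, 8 of the 22 reached it unadjusted, and they were 18, 19, 21, 22, 24, 25 and 27 nt on the minus strand and 21 nt on the plus strand.

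**Figure D1:**
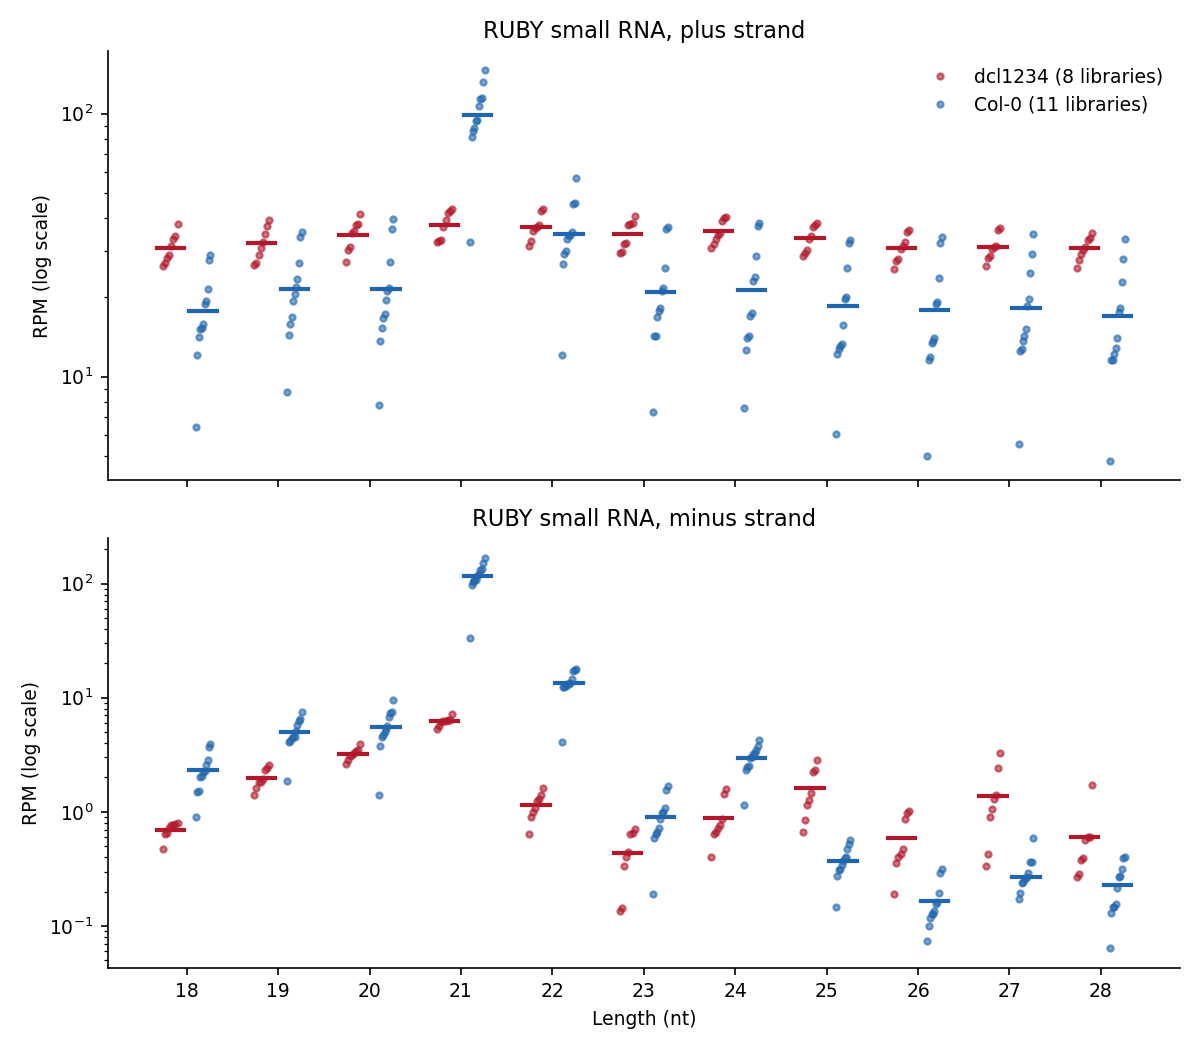
RUBY small RNA by length in dcl1234 (red, 8 libraries) and Col-0 (blue, 11 libraries), plus strand above and minus strand below; points are libraries, bars are group means, and the y axes are RPM on log scales that differ between panels. The peak at 21 nt, at 99.0 RPM on the plus and 115 RPM on the minus strand in Col-0 means, was at 37.8 and 6.19 RPM in dcl1234, whose plus strand was nearly level over all lengths; the Col-0 library at 0 for 27 nt minus has no point on the log axis.

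The combination that set the genotypes furthest apart was 21 nt on the minus strand, the length made by DCL4. It measured 5.31 to 7.13 RPM in dcl1234 (median 6.24) and 33.1 to 168 RPM in Col-0 (median 118), without overlap. The means were 6.19 ± 0.54 RPM (SD, n = 8) in dcl1234 and 115 ± 34.7 RPM (SD, n = 11) in Col-0. In RPM + 1 the level was 15.3-fold lower in dcl1234 (log2 difference -3.93, interval -4.31 to -3.49, exact permutation test, adjusted p = 9.70e-05). The log2 fold change of edgeR on the counts, with mapped reads as library sizes, was -4.22. Taking the dcl1234 mean as the Dicer-independent part and the Col-0 mean minus the dcl1234 mean as the Dicer-dependent part, the dependent part was 109 RPM (interval 83.6 to 133) or 94.6% of the Col-0 level. These names describe the subtraction only, and assume that the mutant lacks all 4 activities. This single combination made up 85.4% of the net Dicer-dependent RPM of the whole minus strand. That net value of 128 RPM includes the negative 25 to 28 nt sum of -3.15 RPM.

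The 22 nt minus strand small RNAs, the length made by DCL2, followed with 0.637 to 1.63 RPM in dcl1234 (median 1.16) and 4.08 to 17.8 RPM in Col-0 (median 13.1), again without overlap. The dependent part was 12.3 RPM (interval 9.50 to 14.9), or 91.5% of the Col-0 mean, and the log2 difference was -2.70 (exact permutation test, adjusted p = 9.70e-05). It made up 9.64% of the minus strand's net Dicer-dependent RPM. At 24 nt, the length made by DCL3, the minus strand had 0.402 to 1.59 RPM in dcl1234 (median 0.742) and 1.15 to 4.30 RPM in Col-0 (median 3.04). There 6 of the 8 dcl1234 libraries lay below all Col-0 libraries, the log2 difference was -1.07 (exact permutation test, adjusted p = 0.000218), and the dependent part was 2.08 RPM (interval 1.40 to 2.74), or 70.1%. Between these lengths the dependent part of the minus strand was smaller: 0.470 RPM (interval 0.123 to 0.820) at 23 nt, which was 52.1% of the Col-0 mean.

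Below 21 nt the minus strand also dropped in dcl1234, by less. At 18 nt the mean was 0.699 RPM in dcl1234 and 2.32 RPM in Col-0, at 19 nt 1.99 RPM in dcl1234 and 4.97 RPM in Col-0, and at 20 nt 3.23 RPM in dcl1234 and 5.59 RPM in Col-0. The dependent shares were thus 69.9%, 59.9% and 42.2% from the shortest to the longest of these 3 lengths. Only at 18 nt did the groups not overlap. The log2 differences were -0.92 at 18 nt, -0.96 at 19 nt and -0.56 at 20 nt, and all passed (exact permutation tests, adjusted p = 0.00034, 0.00042 and 0.0140). At 20 nt the call was lost when MK072 alone or MK073 alone was set against Col-0 (exact permutation tests, adjusted p = 0.0922 and 0.0829), and at 23 nt it was lost with MK073 alone (adjusted p = 0.133).

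Above 24 nt the minus strand went the other way, at levels of a few RPM or less. The 25 nt minus strand small RNAs measured 0.666 to 2.87 RPM in dcl1234 (median 1.37) and 0.145 to 0.5676 RPM in Col-0 (median 0.368), so that all 8 dcl1234 libraries lay above all 11 Col-0 libraries. The log2 difference was 0.87 (interval 0.59 to 1.16, exact permutation test, adjusted p = 9.70e-05). At 26 nt the mean was 0.587 RPM in dcl1234 and 0.164 RPM in Col-0, at 27 nt 1.39 RPM in dcl1234 and 0.271 RPM in Col-0, and at 28 nt 0.602 RPM in dcl1234 and 0.228 RPM in Col-0. Each was called higher in dcl1234 (exact permutation tests, adjusted p = 0.00034, 0.00042 and 0.00209), with overlapping groups. The Col-0 levels rest on few reads: at 25 to 28 nt on the minus strand 0 of 32 values of dcl1234 and 17 of 44 values of Col-0 were at 3 reads or fewer. With values under 1 RPM set to 0, the calls at 26 and 28 nt were lost (exact permutation tests, adjusted p = 0.441 each), as was that at 23 nt (adjusted p = 0.264), and with MK072 alone against Col-0 the call at 28 nt was lost (adjusted p = 0.0967). When each library was scaled to its own plus strand reads of 25 to 28 nt, the calls at 26 and 28 nt were lost (exact permutation tests, adjusted p = 0.0515 and 0.344), while those at 25 and 27 nt were kept.

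On the plus strand 21 nt was also lower in dcl1234, where it stood little above its neighbours. The 21 nt plus strand small RNAs measured 32.4 to 43.4 RPM in dcl1234 (median 38.3) and 32.4 to 146 RPM in Col-0 (median 94.7). The groups overlapped only through Col-0 MK034 number 2, at 32.4 RPM, below which a single dcl1234 library lay. The means were 37.8 ± 4.70 RPM (SD, n = 8) in dcl1234 and 99.0 ± 29.8 RPM (SD, n = 11) in Col-0, with a log2 difference of -1.29 (interval -1.68 to -0.86, exact permutation test, adjusted p = 0.00042). The dependent part was 61.2 RPM (interval 38.6 to 82.7), or 61.8% of the Col-0 mean, against 94.6% on the minus strand at the same length.

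The rest of the plus strand was higher in dcl1234 per mapped read. At 24 nt it measured 30.7 to 40.6 RPM in dcl1234 (median 34.8) and 7.59 to 38.3 RPM in Col-0 (median 17.5), with a log2 difference of 0.85 (exact permutation test, adjusted p = 0.0037). At 22 nt it measured 31.2 to 43.4 RPM in dcl1234 (median 36.9) and 12.1 to 56.9 RPM in Col-0 (median 34.1), a difference of 0.17 (interval -0.23 to 0.59) that did not pass (exact permutation test, adjusted p = 0.484). Over the 9 lengths other than 21 and 22 nt, the means ran from 30.7 to 35.6 RPM in dcl1234 and from 17.0 to 21.6 RPM in Col-0. With MK072 alone against Col-0, none of the 9 higher calls on the plus strand was kept (exact permutation tests, adjusted p = 0.0651 to 0.101), with log2 differences of 0.61 to 1.01. The plus strand of dcl1234 was nearly flat. Its most abundant length exceeded its least abundant by 1.33 ± 0.0752-fold (SD, n = 8), against 6.61 ± 1.48-fold (SD, n = 11) in Col-0.

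RPM depends on all mapped reads of a library, endogenous small RNAs included, and these were not analysed here. Many endogenous small RNAs are DICER-LIKE products, so the mapped total itself can differ between the genotypes in what it holds, and the part of this in the plus strand differences was not tested. Each library was therefore also scaled to its own plus strand reads of 25 to 28 nt, which shifted the median log2 difference of the 22 combinations from 0.53 to -0.14. On that scale 13 combinations passed, 11 lower and 2 higher in dcl1234, and 8 of the 10 plus strand combinations with a higher dcl1234 mean turned lower on the log2 scale. Of these, 19, 20 and 22 nt passed as lower, with log2 differences of -0.29, -0.15 and -0.77 (exact permutation tests, adjusted p = 0.00303, 0.0275 and 3.23e-05), while 18, 23, 24, 26 and 27 nt did not pass. The 26 and 27 nt combinations are part of the scaling reference, whose sum was set equal. Differences near 0 there (-0.0206 and -0.0551) are built in. The whole plus strand, which is not higher on this scale, had a log2 difference of -0.61 (exact permutation test, adjusted p = 2.38e-05). The scaling takes the 25 to 28 nt plus strand as equal in both genotypes, which the data cannot show.

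On both scales 21 nt stood out. After scaling, the dependent part at 21 nt was 97.2% of the Col-0 mean on the minus strand and 80.1% on the plus strand. At 22 nt it was 95.6% on the minus strand and 43.1% on the plus strand, where none had been seen per mapped read. At 24 nt it was 84.9% on the minus strand, and the plus strand estimate of 1.24 scaled units (interval -0.46 to 2.96) included 0. Scaled units are RPM multiplied within each library so that its plus strand 25 to 28 nt sum has a common level. Of the Dicer-dependent 21 nt small RNA, 64.1% was on the minus strand per mapped read and 58.8% after scaling.

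**Figure D2:**
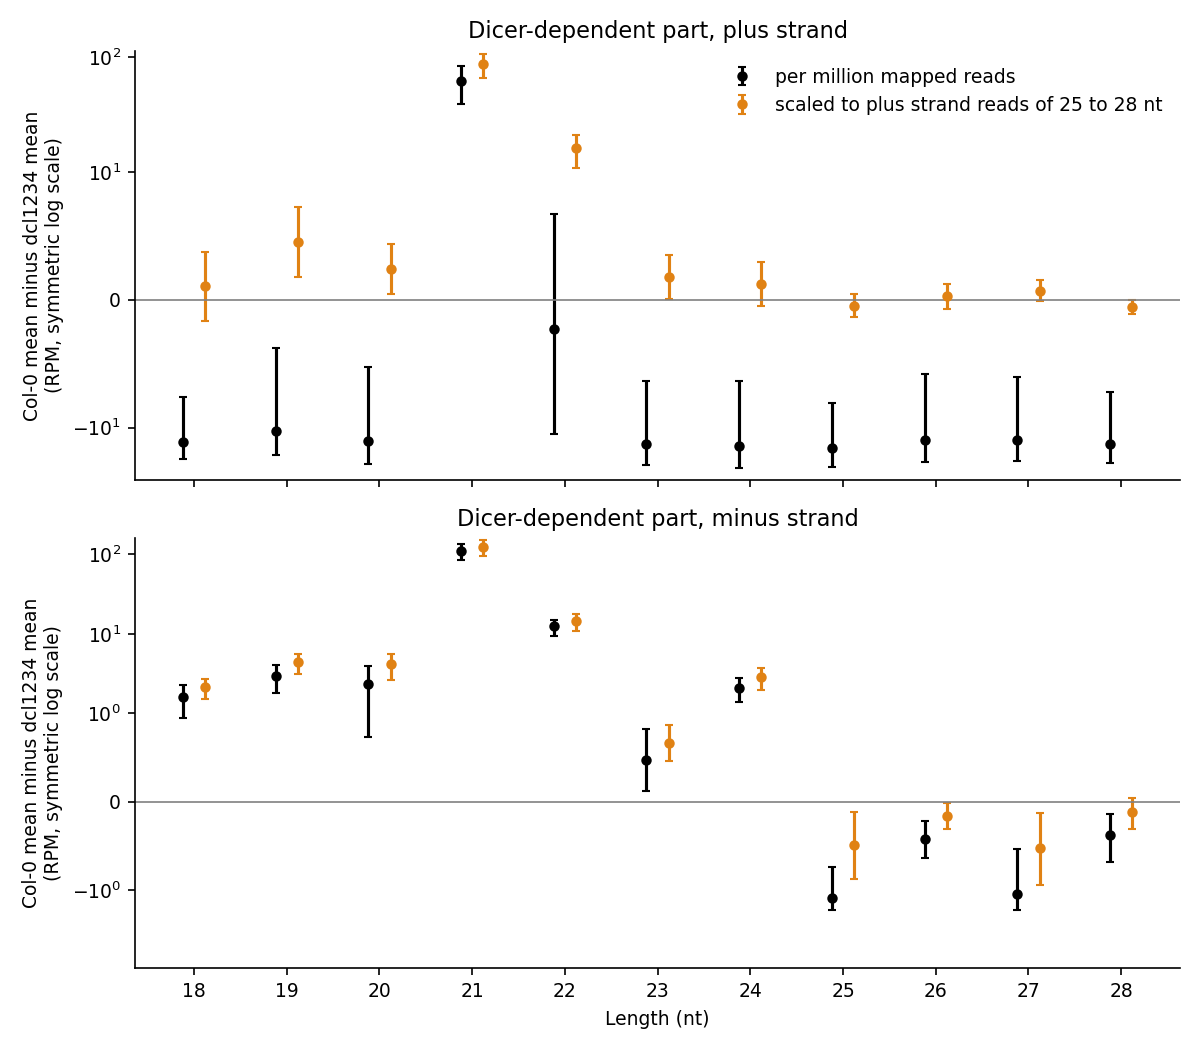
Dicer-dependent part at each length, as the Col-0 mean minus the dcl1234 mean, on the plus strand (top) and minus strand (bottom), with 95% intervals from the exact permutation test; black is RPM, orange is scaled to the plus strand reads of 25 to 28 nt, and the y axes are linear near 0 and logarithmic beyond. Values above 0 mean less in dcl1234; 21 nt stood out on both strands and both scales, at 61.2 and 86.2 on the plus strand and 109 and 123 on the minus strand, while the black plus strand values at other lengths were negative.

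The height of 21 nt above its surroundings gave a measure that needs no other library. Above the mean of the 20 and 23 nt levels of the same strand, a description chosen after the values were seen, 21 nt stood out by 3.08 ± 1.52 RPM on the plus and 4.36 ± 0.731 RPM on the minus strand in dcl1234 (SD, n = 8). In Col-0 it stood out by 77.7 ± 22.98 RPM on the plus and 112 ± 33.5 RPM on the minus strand (SD, n = 11). A small step at 21 nt thus remained in the dcl1234 means. The lowest library values were 1.25 RPM on the plus strand and 3.22 RPM on the minus strand. On the plus strand the lowest, in MK072 number 1, came from 731 reads at 21 nt, against 693 at 20 nt and 713 at 23 nt. Whether the plus strand steps of single libraries exceed counting error was not tested. The 22 nt plus strand level stood out by 2.44 ± 2.45 RPM in dcl1234 (SD, n = 8) and 13.6 ± 4.34 RPM in Col-0 (SD, n = 11), and it exceeded 21 nt in 4 of the 8 dcl1234 libraries. At 22 nt on the minus strand, dcl1234 had no such step, with -0.683 ± 0.379 RPM (SD, n = 8) against 10.2 ± 2.72 RPM in Col-0 (SD, n = 11).

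The ratios of neighbouring lengths were tested with 1 RPM added to each level, which pulls ratios of levels near 1 RPM towards 1. On the minus strand the ratio of 21 to 20 nt was 1.72 ± 0.231 in dcl1234 (SD, n = 8) and 17.7 ± 1.90 in Col-0 (SD, n = 11). The ratio of 22 to 23 nt on that strand was 1.53 ± 0.293 in dcl1234 and 7.63 ± 1.65 in Col-0, and that of 24 to 25 nt was 0.750 ± 0.142 in dcl1234 and 2.88 ± 0.498 in Col-0 (SD, n = 8 and n = 11). In dcl1234, therefore, 24 nt was not more abundant than 25 nt on the minus strand in any library, where the highest ratio was 1. On the plus strand the 21 to 20 nt ratio was 1.09 ± 0.0569 in dcl1234 (SD, n = 8) and 4.67 ± 1.10 in Col-0 (SD, n = 11). Of the 6 ratios, 5 were lower in dcl1234 without overlap (83.3%, exact permutation tests, adjusted p = 1.59e-05 each, from the smallest p the test can give). From the reads alone, with nothing added, a description chosen after the values were seen, the minus strand ratio was 11.1-fold lower in dcl1234 for 21 to 20 nt, 5.33-fold for 22 to 23 nt and 14.2-fold for 24 to 25 nt. The order of the lengths therefore depended on the 1 RPM added, and the 24 to 25 nt ratio combines less 24 nt with more 25 nt in dcl1234. With nothing added, 7 of the 8 dcl1234 libraries lay below all Col-0 libraries for 22 to 23 nt. The 5 calls were kept with 0.1 RPM added (exact permutation tests, adjusted p = 1.59e-05 each). The exception was 24 to 25 nt on the plus strand, with means of 1.06 ± 0.0769 in dcl1234 and 1.14 ± 0.0954 in Col-0 (log2 difference -0.11, interval -0.22 to 0.005, exact permutation test, adjusted p = 0.0603). It passed without dcl1234 MK072 number 3, Col-0 MK034 number 1 or Col-0 MK044 number 2 (lowest exact adjusted p = 0.0123, log2 difference -0.13).

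As a share of all 18 to 28 nt reads, 21 nt fell to 11.3 ± 0.380% in dcl1234 (10.9 to 12.0%, SD, n = 8), against 47.6 ± 5.15% in Col-0 (37.6 to 54.3%, SD, n = 11). The shares of 21 and 22 nt were lower in dcl1234 (18.2% of the 11 shares) and those of the other 9 lengths higher (81.8%). All 11 passed (100%, exact permutation tests). Because shares add up to a fixed sum, 1 large loss raises all the others. The 9 higher shares can arise in that way, but the lower 22 nt share cannot. The 22 nt share differed least, at 9.87 ± 0.539% in dcl1234 and 10.7 ± 0.555% in Col-0 (SD, n = 8 and n = 11, exact permutation test, adjusted p = 0.0057). Within the minus strand, 21 nt made up 33.9 ± 6.27% in dcl1234 (SD, n = 8) and 78.6 ± 0.977% in Col-0 (SD, n = 11).

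The share of reads on the minus strand is likewise free of the mapped total, and fell in dcl1234. It was 3.72 to 7.29% in dcl1234 (median 4.43%) and 24.1 to 38.0% in Col-0 (median 32.1%), without overlap. The difference was -27.7 percentage points (interval -30.9 to -24.4, exact permutation test, adjusted p = 2.65e-05). At 21 nt the share was 14.2 ± 1.71% in dcl1234 (SD, n = 8) and 53.7 ± 1.70% in Col-0 (SD, n = 11), a difference of -39.5 points (interval -41.2 to -37.8). The strands were thus close to balanced at 21 nt in Col-0, and the plus strand prevailed at every length in dcl1234.

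Of these 12 shares, over all lengths and at each of the 11, 11 passed (91.7%), 8 lower in dcl1234 (66.7%) and 3 higher (25%). At 22 nt the share was 3.01 ± 0.833% in dcl1234 and 28.1 ± 3.51% in Col-0, and at 24 nt it was 2.42 ± 1.14% in dcl1234 and 13.4 ± 4.37% in Col-0 (SD, n = 8 and n = 11). The shares that were higher in dcl1234 were at 25, 26 and 27 nt, and the difference at 28 nt did not pass (exact permutation test, adjusted p = 0.355). At 25 nt the share was 4.62 ± 2.42% in dcl1234 and 2.34 ± 1.17% in Col-0 (exact permutation test, adjusted p = 0.0119, n = 8 and n = 11). With MK072 alone against Col-0, none of those 3 passed, and the difference at 25 nt was 0.296 points (exact permutation test, adjusted p = 0.743).

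**Figure D3:**
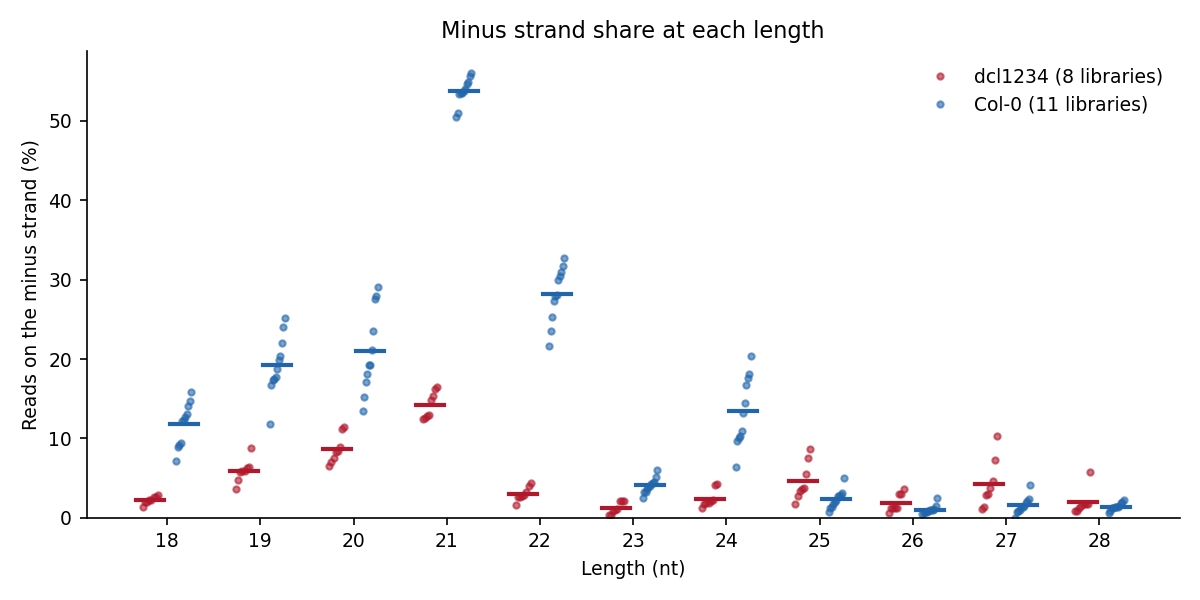
Share of reads on the minus strand at each length, in percent, in dcl1234 (red, 8 libraries) and Col-0 (blue, 11 libraries); points are libraries and bars are group means. All dcl1234 libraries lie below all Col-0 libraries from 18 to 24 nt, with means of 14.2% and 53.7% at 21 nt, and the groups overlap from 25 to 28 nt.

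Between the 2 dcl1234 events no difference passed, and the lowest p-values were on the minus strand at 23, 25 and 26 nt. The total was 343, 399 and 426 RPM in MK072 and 347, 447, 412, 347 and 385 RPM in MK073. The log2 difference, MK072 minus MK073, was 0.007 (interval -0.38 to 0.30, exact permutation test, adjusted p = 1). The minus strand was 15.6, 17.1 and 15.8 RPM in MK072 and 20.1, 18.9, 21.5, 25.3 and 15.7 RPM in MK073. Here 4 of the 5 MK073 libraries lay above all MK072 libraries, but the log2 difference of -0.29 (interval -0.72 to 0.15) did not pass (exact permutation test, adjusted p = 0.964).

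None of the 22 combinations passed between the events (0% called), where the smallest p that 3 against 5 libraries allow is 0.0179. A single combination at that p cannot pass the adjustment over 22, so the lack of calls does not show that the events agree. The same limit holds for the sums and the minus strand shares of the events. In 3 combinations, those with the lowest p, there was an unadjusted exact permutation p under 0.05, each on the minus strand and each with every MK072 library below every MK073 library. At 25 nt the minus strand had 0.849, 0.666 and 1.15 RPM in MK072 and 2.34, 1.47, 2.22, 2.87 and 1.27 RPM in MK073. That difference was -0.66 (interval -1.32 to -0.08, exact permutation p = 0.0357, adjusted p = 0.262), and edgeR's quasi-likelihood test on the counts called it, as its only call of the 22 (log2 fold change -1.17, adjusted p = 0.00953). At 26 nt the minus strand had 0.358, 0.400 and 0.192 RPM in MK072 and 0.977, 0.468, 1.01, 0.860 and 0.425 RPM in MK073 (exact permutation p = 0.0357, adjusted p = 0.262). At 23 nt it had 0.134, 0.333 and 0.144 RPM in MK072 and 0.651, 0.401, 0.444, 0.645 and 0.708 RPM in MK073 (exact permutation p = 0.0179, adjusted p = 0.262). At 23 nt 2 of the 3 MK072 values were at the 3 read limit.

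At 21 nt the Dicer-independent level of the minus strand was 6.44, 7.13 and 6.19 RPM in MK072 and 5.66, 6.29, 6.15, 6.38 and 5.31 RPM in MK073, a log2 difference of 0.13 (interval -0.05 to 0.37) that did not pass (exact permutation test, adjusted p = 0.54). On the plus strand the 21 nt means were 38.0 RPM in MK072 and 37.7 RPM in MK073, and the 25 to 28 nt sums were 127 RPM in MK072 and 126 RPM in MK073. The minus strand share was 4.19 ± 0.428% in MK072 (SD, n = 3) and 5.32 ± 1.31% in MK073 (SD, n = 5; exact permutation test, adjusted p = 0.429). Within the minus strand, 21 nt made up 39.1 to 41.6% in MK072 and 25.2 to 33.8% in MK073, given as a description because it was looked at after the values were seen. Of the 12 minus strand shares 0 passed, with 1 at an unadjusted exact permutation p under 0.05, and of the 9 sums 0 passed, with 0 unadjusted.

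**Figure D4:**
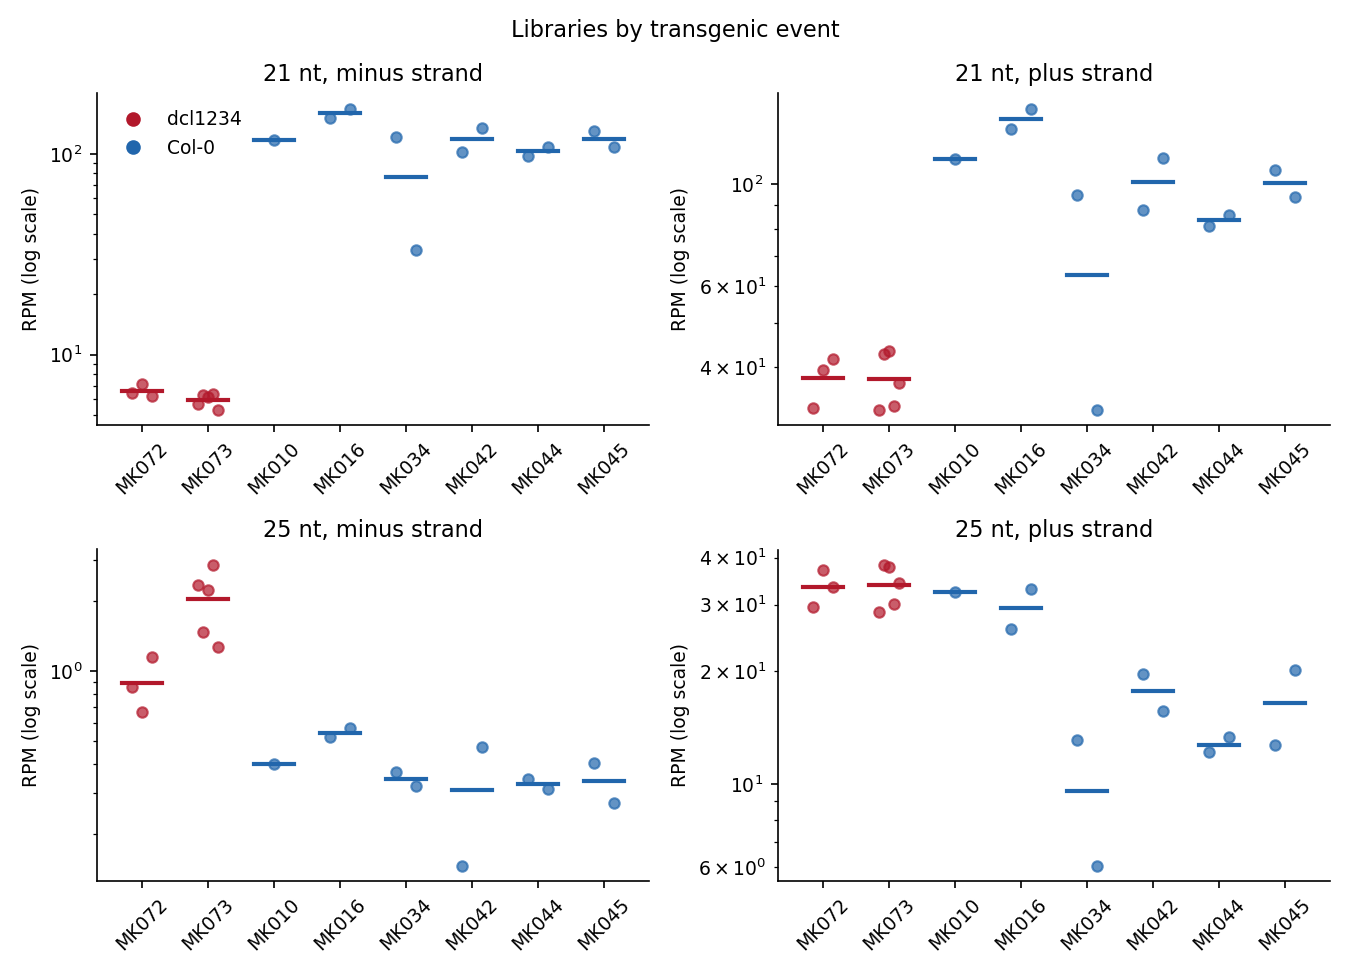
Libraries by transgenic event for 21 nt and 25 nt on each strand, in RPM on log scales; points are libraries, bars are event means, red is dcl1234 and blue is Col-0. On the 21 nt minus strand both dcl1234 events (means 6.59 and 5.96 RPM) lie below all 6 Col-0 events (76.9 to 160 RPM); on the 25 nt minus strand both lie above them, MK073 more than MK072.

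Set against the Col-0 events, both dcl1234 events lay outside the range in the sum of the minus strand and inside it in the sum of the plus strand. The minus strand event means were 16.2 RPM in MK072 and 20.3 RPM in MK073, against 97.0 to 203 RPM in the 6 Col-0 events. For the plus strand they were 373 RPM in MK072 and 368 RPM in MK073, against 175 to 467 RPM in Col-0 events. The 25 to 28 nt plus strand sum, which was 127 RPM in MK072 and 126 RPM in MK073, ranged from 35.9 to 135 RPM among Col-0 events. At 21 nt on the plus strand, by contrast, the means of 38.0 RPM in MK072 and 37.7 RPM in MK073 lay below all Col-0 events, at 63.6 to 139 RPM.

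Other red groups of the series served to place the dcl1234 profile, in 12 tests adjusted together. Folds of these 12 tests are ratios of RPM + 1. Against 13 libraries of fully red leaves from 35S Col-0 plants, dcl1234 had a 17.3-fold lower minus strand (interval 7.58 to 38.8) and a 10.7-fold lower 21 nt level (interval 5.46 to 21.03; exact permutation tests, adjusted p = 2.95e-05 each). The total was 2.50-fold lower and the whole plus strand 1.56-fold lower in dcl1234 than in fully red leaves (exact permutation tests, adjusted p = 0.00258 and 0.0134). The 25 to 28 nt plus strand sum was 1.38-fold higher in dcl1234 than in those leaves (exact permutation test, adjusted p = 0.0470). On the minus strand lay 4.90 ± 1.17% of the reads in dcl1234 (SD, n = 8) and 38.9 ± 14.7% in fully red leaves (SD, n = 13), a difference of -34.0 points (exact permutation test, adjusted p = 0.000118). A single fully red library, MK044 number 3, reached 5.94% (Wilson 95% interval 4.02 to 8.69%, 404 transgene reads, 7 combinations set to 0), within the dcl1234 range, and without it the difference was -36.8 points.

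The 4 always red ZmUBQ::RUBY libraries in Col-0 differ from dcl1234 in promoter as well as genotype, ZmUBQ being named after a maize ubiquitin promoter. Their minus strand share was 36.2 to 42.0%, against 3.72 to 7.29% in dcl1234 (exact permutation test, adjusted p = 0.00269). The minus strand was 4.62-fold lower and the plus strand 2.68-fold higher in dcl1234 (exact permutation tests, adjusted p = 0.00269 each). The 21 nt level, at 44.0 ± 4.83 RPM in dcl1234 (SD, n = 8) and 80.6 ± 45.5 RPM in ZmUBQ plants (SD, n = 4), did not pass (exact permutation test, adjusted p = 0.109). The minus strand share was thus lower in dcl1234 than in each of the 3 red Col-0 groups compared. These groups are not independent, since the events MK016, MK042, MK044 and MK045 gave both fully red and always red 35S libraries. The same 8 dcl1234 libraries also entered each comparison.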

How the data were processed

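The authors deposited, for each library, the count of reads on the RUBY transgene at each length and strand, without normalization, and the number of mapped reads. The deposited RPM was made by the authors as count divided by mapped reads times 1000000, per the file headers, and recomputing it left 0 values off by a relative 1e-06 or more. The genome build is TAIR10, per the submitters' processing notes. The aligner, trimming, read filters and the sequences behind the mapped total are not given in the sources used here. Per the labels' protocols, TRIzol was used for extraction and the TruSeq Small RNA kit for libraries from the size-enriched fraction.

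Missing combinations were set to 0, and log2 values were computed after adding a pseudocount of 1 RPM. Group means were compared by two-sided exact permutation tests over libraries, for which 1.32e-05 is the smallest p for dcl1234 against Col-0. Benjamini-Hochberg adjustment ran within 5 families: 9 sums, 22 combinations, 12 minus strand shares, 11 length shares and 6 ratios. Adjusted p under 0.05 counted as passed, and 95% intervals hold the shifts that the test did not reject. The test was checked on simulated data, drawn independently for each library and combination. Differences between events were not simulated, so the check does not cover calls that arise from them. It was preferred to a count model because 22 related combinations are too few for a dispersion trend; edgeR 4.0.16 and DESeq2 1.42.0 in R 4.3.3 were alternatives. Python 3.11.15, numpy 2.4.6, scipy 1.17.1 and matplotlib 3.10.9 were used. All 22 combinations are described, and between the events the 3 with the lowest p are named where none passed. Libraries were grouped by their labels, and the comparison, the members and the tests were chosen with earlier results of these data known.

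The deviations of same-numbered MK072 and MK073 libraries from their event means had correlations of 0.331, 0.119 and 0.374. Those of different-numbered libraries had correlations from -0.625 to 0.347, which overlap these. Same-numbered libraries were treated as pairs in an alternative, which changed no call and cannot reach the threshold with 3 pairs. A chi-squared test did not separate 1 of 28 pairs of dcl1234 libraries and 1 of 55 pairs of Col-0 libraries from sampling noise. Both pairs joined different events, so their libraries were counted separately. Other alternatives were pseudocounts, ranks, a minimum value, scaling within the library, 1 mean per event, and leaving out each library or event. Of the other libraries, only 13 of fully red 35S leaves and 4 of always red ZmUBQ plants, all Col-0, were used, in 12 tests adjusted together.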

Additional observations from a re-analysis of the deposited data

Results flagged for a closer look

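In the dcl1234 group, number 4 of event MK073 stood far from the other 7 libraries at 28 nt on the minus strand, with 1.72 RPM where the others had 0.268 to 0.602 RPM. The share of its 28 nt reads on the minus strand was 5.83%, where the others had 0.867 to 1.79%. Both values rest on the same reads. A result was flagged when its gap passed a cut-off that chance alone exceeds in about 1 of 20 groups. Of the 49 results examined, 2 passed it. Here the gap to the nearest library was 0.770 of the range of the 8 libraries in RPM and 0.813 in the share. Both lay beyond the cut-off, so the rate of 1 in 20 belongs to the cut-off and not to gaps of this size. The cause was not tested. Without this library the difference in that share between dcl1234 and Col-0 was -0.0065 points.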

How the results depend on the processing

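All values are log2 differences, dcl1234 minus Col-0, unless stated. The lower minus strand and 21 nt level kept their direction and passed with other pseudocounts, ranks, a minimum value, both scalings, the replicate block, library averaging, and each library or event left out. The minus strand share and 21 nt share did so with the last 3 of these, and no count model was run on any of these 4. The exception was 1 mean per event, where the shares passed and the minus strand (-2.88) and 21 nt level (-2.19) did not (exact permutation p = 0.0357, the smallest possible, adjusted p = 0.161), and 0 of the 22 combinations did. That p is the smallest possible for the shares too. They passed only because more of the linked results adjusted with them reached it, which does not make them firmer. Scaling to the plus strand reads of 25 to 28 nt gave -1.11 for the total, now called, -0.61 for the plus strand, -0.38 for 18 to 20 nt, -0.16 for 23 nt and -0.25 for 24 nt, and 13 calls of 22, 11 of them lower. On the plus strand it gave -0.0722 at 18 nt, -0.29 at 19 nt, -0.15 at 20 nt, -0.77 at 22 nt, -0.12 at 23 nt, -0.0781 at 24 nt, -0.0206 at 26 nt and -0.0551 at 27 nt, all with the sign turned. The 26 and 27 nt combinations are part of that scaling reference. Scaling to the plus strand reads other than 21 and 22 nt, chosen after seeing the data, gave -1.02 for the total, -0.52 for the plus strand, -0.29 for 18 to 20 nt, -0.0698 for 23 nt and -0.16 for 24 nt. On the plus strand it gave -0.21 at 19 nt, -0.0678 at 20 nt, -0.68 at 22 nt and -0.0301 at 23 nt, and 15 calls, 10 lower and 5 higher. The 19, 20 and 23 nt combinations are part of this other reference. The plus strand at 22 nt also turned with edgeR on trimmed mean factors (-0.23) and without event MK034 (-0.00025), which called the total lower (-0.32). The plus strand was called higher without event MK016 (0.50). Without event MK073 10 combinations passed and the minus strand share at 28 nt was -0.22 points. Leaving out each library, the total ranged from -0.30 to -0.0675, the plus strand from 0.21 to 0.44 and the minus strand share at 28 nt from -0.0065 to 0.702 points. With MK072 alone the 9 higher plus strand calls were lost. The minus strand share at 26 nt lost its call in 12 of these 19. Replicate numbers shared by dcl1234 and Col-0 did not pair the libraries (median correlation -0.0355 in 22 pairs with the same number), and a replicate block over them gave 13 calls. In that block none of the higher length classes, 18 to 20, 23, 24 and 25 to 28 nt, passed (exact permutation tests, adjusted p = 0.0957 to 0.153). Between MK072 and MK073 the total, near 0, was -0.0100 and -0.0184 under the 2 scalings, -0.0448 with the replicate block, and -0.0606 to 0.0944 leaving out each library. edgeR called 1 combination between the events. The causes were not tested beyond what each alternative changes by construction. Averaging libraries that a chi-squared test did not separate changed none of 61 results when made across events, and within events no such pair existed. None of the 19 libraries of the genotype comparison had under 8 M mapped reads. Among the fully red leaves, MK044 number 3 had 0.905 M. With values under 1 RPM set to 0, the minus strand calls at 23, 26 and 28 nt were lost. Depth limits the minus strand above 24 nt and at 23 nt. At 23 nt single dcl1234 libraries had as few as 3 reads. At 25 to 28 nt the low counts were in Col-0, with 17 of 44 values at 3 reads or fewer, against 0 of 32 in dcl1234.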
